A study of Mus musculus with 8 samples.

Results

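Regions of histone H3 lysine 36 trimethylation (H3K36me3) that lie far from every protein-coding gene were described in mouse bone marrow stromal cells with and without the methyltransferase gene Setd2. A region is an interval under a peak in both control libraries, 200 bp or wider, on an autosome. It was kept if it shared no base with any annotated gene of GRCm38 and lay more than 10 kb from every protein-coding span. The rule selected 3013 of 177351 such autosomal intervals (1.70%), holding 1.44 Mb, or 1.01% of the bases. These members were chosen by the peak calls of the control libraries, so their full coverage in those libraries is the rule itself and not a finding. What the rule did not use is their coverage in the Setd2-deleted libraries, their coverage in lists called against IgG, their spacing and their neighbours.

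All cells were Setd2 fl/fl bone marrow stromal cells of C57BL/6J mice at passage 2. Control cells (WT) carried a GFP lentivirus and deleted cells (KO) a Cre lentivirus, and both went through 4 days of puromycin at 2 µg/ml. The WT cells therefore hold the floxed alleles too, and the KO cells are a selected population in which the deletion was made in culture. There were 2 H3K36me3 libraries per genotype, made with antibody ab9050, and 1 Input and 1 IgG library per genotype. The labels do not say whether both libraries of a genotype come from different cultures, so p-values speak only of how far these samples lie apart, and that may be technical. Peak lists hold no reads, so the depth is unknown, and whether Cre removed its target exons cannot be read from them.

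Setd2 is the main enzyme that places H3K36me3 in mammalian cells. It travels with elongating RNA polymerase II, so the mark is known to cover the bodies of transcribed genes. Transcription also runs outside the spans of coding genes: past their annotated 3′ ends, through long non-coding RNA genes, and through the primary transcripts of microRNAs (miRNAs), which are much longer than the hairpins cut from them and are often absent from gene tables. A miRNA acts through its seed, the bases from position 2 to 8 of the mature strand, which pair with target messenger RNAs.

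Some runs of members, chained at gaps of up to 10 kb, lay within 5 kb of miRNA genes. These were 8 of the 48 runs with 5 or more members (16.7%), among them the run with the most member bases. The run with the most members, 37, was not among them. This feature was picked after the values had been seen. A mature strand of each miRNA gene at the 8 loci with 5 or more members is shown here, from the RefSeq sequence table of GRCm38.p6, written 5′ to 3′ with the seed in capitals. The miR-29 strands share 1 seed, and the 5 let-7 miRNAs of 2 separate loci share another.
mmu-miR-29a-3p: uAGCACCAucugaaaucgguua
mmu-miR-29b-3p: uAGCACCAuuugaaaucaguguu
mmu-let-7c-5p: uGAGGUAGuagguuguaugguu
mmu-let-7b-5p: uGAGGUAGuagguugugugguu
mmu-let-7d-5p: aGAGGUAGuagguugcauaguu
mmu-let-7f-5p: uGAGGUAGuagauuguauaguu
mmu-let-7a-5p: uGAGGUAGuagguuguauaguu
mmu-miR-34a-5p: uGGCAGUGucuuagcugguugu
mmu-miR-365-3p: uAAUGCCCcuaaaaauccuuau
mmu-miR-146a-5p: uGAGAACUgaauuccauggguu
mmu-miR-101a-3p: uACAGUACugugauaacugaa
mmu-miR-6363: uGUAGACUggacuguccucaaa

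The mark on marker genes was read as a check of the cell type. Of 15 stromal markers, 12 had 10% or more of their span covered in both WT libraries, and Thy1 was at 0. Of 9 haematopoietic markers, 7 did, among them the macrophage genes Lyz2 and Cd68, and Cd3e was at 0. Of 5 endothelial markers, 1 did. Summed coverage was 687% and 638% for the stromal list, 209% and 281% for the haematopoietic list, and 40.4% and 28.8% for the endothelial list in WT replicates 1 and 2. In KO the same sums were 36.7% and 32.4%, 18.1% and 62.9%, and 21.0% and 30.8%. The lists hold 15, 9 and 5 genes, so their sums do not compare the cell types on equal terms. Whether other cells added to the members was not tested.

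Members were short. Their width ran from 200 to 4244 bp, with a median of 429 bp, quartiles of 324 and 543 bp, and a mean of 477 ± 268 bp (SD over the 3013 regions). Of them, 113 (3.75%) reached 1 kb and 18 reached 2 kb. Regions inside protein-coding spans had a median of 605 bp, and 22.9% of those reached 1 kb, while those within 10 kb of coding genes had a median of 532 bp. The authors' peak score was also lower at members: its median was 31.9 in WT replicate 1 and 33.5 in WT replicate 2, beside 70.4 and 65.0 in coding spans. Width and score chose these intervals in part, so both are given as a description. At the width limit the nearest members were 200 bp wide and the nearest intervals left out 199 bp. At the distance limit they lay at 10.02 kb inside and 9.98 kb outside.

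KO peaks met a larger share of the members than of WT regions as a whole. Of the 3013 members, 1035 (34.4%) held a peak of KO replicate 1, beside 10.0% of all autosomal WT regions. A peak of KO replicate 2 was found in 1123 (37.3%), beside 12.4%. Peaks of both KO libraries met 607 members (20.1%), beside 3.02%. No KO peak touched 1462 members (48.5%), beside 80.6% of all autosomal WT regions.

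By bases, KO peaks covered 25.6% of the members in KO replicate 1 and 27.6% in KO replicate 2. The same measure was 4.96% and 6.16% for regions in coding spans, 6.17% and 7.59% for regions within 10 kb of them, and 13.2% and 15.3% for regions in other annotated genes. Both KO libraries gave this order, with members highest. The order was the same within a narrow range of widths: among regions of 300 to under 600 bp the values were 27.7% and 28.9% for members and 4.32% and 5.46% for coding spans. No test was made between classes, because regions of one library are not replicates. The level moved with the lists that chose the regions. With the peaks of a single WT library as regions it was 12.8% to 13.03% (mean of the KO libraries), and with lists called against IgG it was 13.9%.

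**Figure D1:**
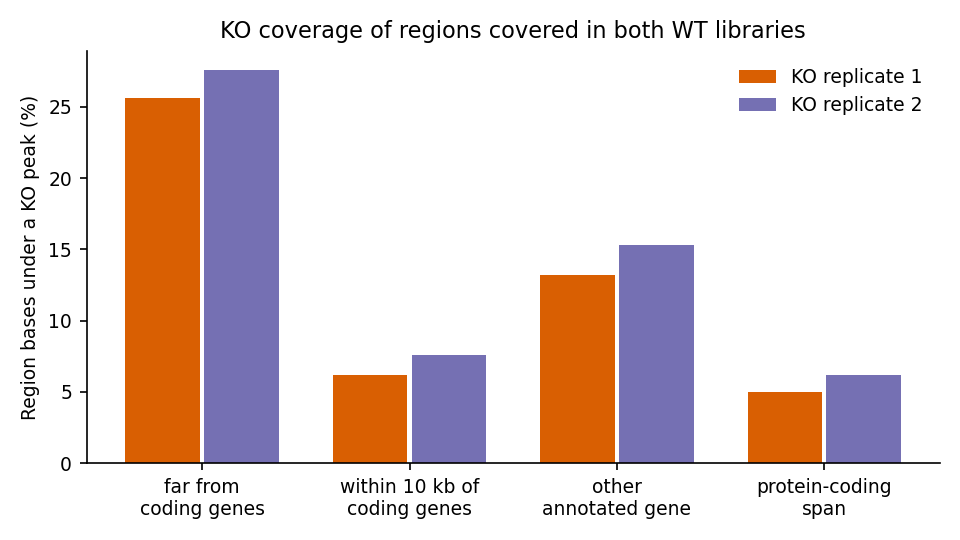
Percent of the bases of WT regions that lay under KO peaks called against Input, for 4 classes of region by position (x axis), with 1 bar for each KO library. The members, at the left, stand at 25.6% and 27.6%, above the 3 other classes in both libraries.

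The share must be read against how much of the space open to members the KO lists cover. The space from which members could come, outside genes and more than 10 kb from coding genes, held 1045 Mb. WT peaks covered 12.6 and 13.04 Mb of it, and KO peaks 28.1 and 37.1 Mb. The means were 12.8 ± 0.279 Mb in WT and 32.6 ± 6.32 Mb in KO (SD, n = 2), a ratio of 2.54, and both KO libraries lay above both WT libraries. A two-sided exact permutation over the libraries gave p = 0.3333, the smallest that 2 against 2 can reach. There were 20904 and 21719 WT peaks wholly in this space, and 47526 and 61980 KO peaks, so the KO lists held more peaks there. KO peaks did not gather in far space, of which they covered 2.69% and 3.54%. They covered 2.80% and 3.65% of coding spans, 3.01% and 4.00% of the space within 10 kb of them, and 3.19% and 4.23% of other annotated genes. WT peaks covered 1.21% and 1.25% of far space and 20.8% and 20.1% of coding spans.

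The mean widths of far peaks overlapped between the genotypes. They were 587 and 584 bp in WT and 583 and 589 bp in KO (exact permutation p = 1.0, difference 0.465 bp). The sign of that difference turned to -2.76 bp without KO replicate 2 and to -1.43 bp without WT replicate 2. With KO peaks covering 2.69% and 3.54% of far space, coverage of members was 9.52 and 7.78 times that of far space as a whole. The same ratio, each to the space of its own class, was 4.14 and 3.62 for regions in other annotated genes. It was 2.05 and 1.90 for regions within 10 kb of coding genes, and 1.77 and 1.69 in coding spans. KO peaks therefore fell on the members more densely than on far space as a whole, in both libraries. With KO peaks called against IgG the ratio for the members was 5.88 and 5.22. The sequence next to the members was not measured apart.

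Because members need both WT lists, the recurrence of far peaks was measured with each WT library in turn as the chooser. Of the bases under far peaks of WT replicate 1, 12.0% were covered in WT replicate 2, 11.9% in KO replicate 1 and 14.1% in KO replicate 2. For far peaks of WT replicate 2 the values were 11.7% in WT replicate 1, 11.7% in KO replicate 1 and 13.9% in KO replicate 2. A far WT peak was thus covered in the other WT library to about the same share as in a KO library. The mean held-out WT coverage minus the mean KO coverage was -1.08 percentage points. It was 0.0245 without KO replicate 2, and 2.19 with the lists called against IgG, so its sign is not fixed. Relative to far space as a whole, which WT lists cover less, the held-out WT library stood at 9.66 and 9.65 times its coverage of that space. The KO libraries stood at 3.93 to 4.44 times theirs.

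Long chains of far peaks and lone peaks gave different orders of the libraries in the percent of bases covered. Here peaks of 1 library were chained at gaps of up to 10 kb. Lone far peaks of WT replicate 1 were covered to 7.79% in WT replicate 2 and to 11.3% and 13% in KO replicates 1 and 2. Its 1737 peaks in 250 chains of 5 or more were covered to 32.2% in WT replicate 2 and to 12.1% and 14.2% in the KO libraries. For WT replicate 2 the lone peaks gave 7.67%, 10.7% and 12.8%, and the 1633 peaks in 230 long chains gave 36.1%, 12.3% and 15.3%. Chains of 2 to 4 lay nearer to the lone peaks, at 12.4% in WT replicate 2 beside 12.7% and 15.6% in KO, and at 11.1% in WT replicate 1 beside 12.9% and 15.0% in KO. The other WT library thus gave over 2 times the KO coverage in chains of 5 or more, which hold 8.31% and 7.52% of far peaks, and less than either KO library for lone peaks and chains of 2 to 4. Relative to far space, which KO lists cover more, the other WT library was highest in each chain class. For lone peaks of WT replicate 1 it stood 6.25 times above far space, beside 4.20 and 3.67 times in KO. For its chains of 5 or more it stood 25.8 times above, beside 4.50 and 4.01. Lone peaks of WT replicate 2 gave 6.35, beside 3.99 and 3.61. The chains were built in the choosing library alone, so the measuring libraries did not shape them.

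**Figure D2:**
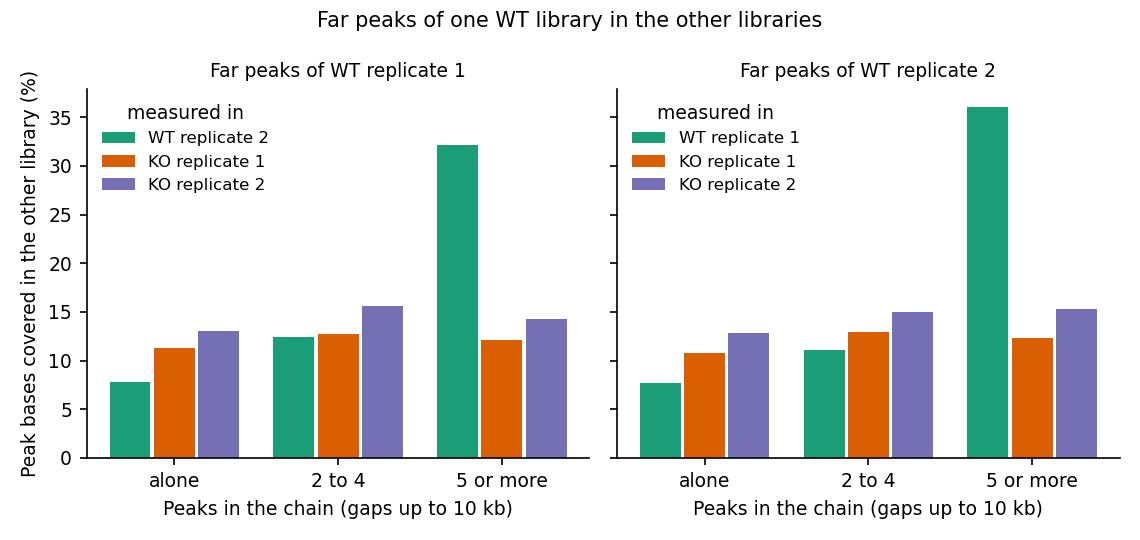
Percent of the bases of far WT peaks covered in the other WT library and in the KO libraries (bars), by the number of peaks in the chain (x axis), with WT replicate 1 (left) or 2 (right) choosing the peaks. In chains of 5 or more the other WT library reaches 32.2% and 36.1% and the KO libraries stay between 12.1% and 15.3%.

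Members gathered near coding genes. At 10 to 20 kb from the nearest coding gene there were 826 members, or 7.38 per Mb of far space. The density was 4.59 per Mb at 20 to 50 kb, 2.79 at 50 to 100 kb, 1.89 at 100 to 500 kb and 0.955 beyond 500 kb, where 195 members lay. The share of members in groups over the same bins was 45.3%, 45.8%, 24.6%, 15.6% and 10.3%. KO coverage was 21.1% and 21.7% at 10 to 20 kb and 30.8% and 34.2% at 100 to 500 kb in KO replicates 1 and 2. Members near coding genes were therefore denser and more grouped than remote ones, and less of their length lay under KO peaks.

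**Figure D3:**
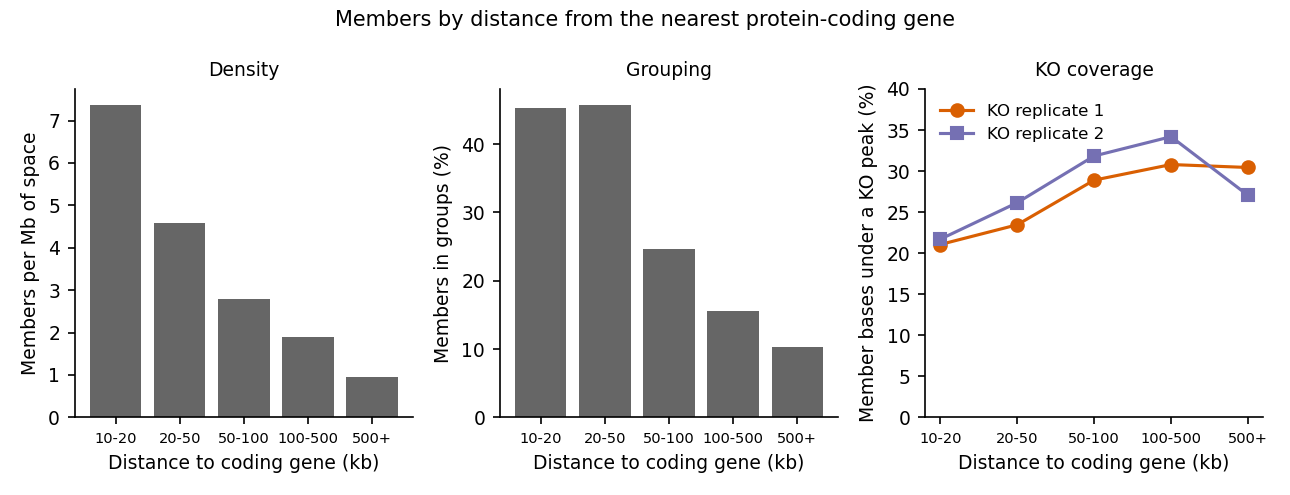
Members by distance from the nearest protein-coding gene in kb (x axis of each panel): members per Mb of far space (left), percent of members in groups of 2 or more (middle), and percent of member bases under KO peaks with 1 line per KO library (right). Density falls in each bin, from 7.38 to 0.955 per Mb.

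The coding genes next to members more often carried the mark themselves. The nearest coding gene had 50% or more of its span covered in both WT libraries for 670 members (22.2%), while such genes were nearest to 10.7% of far space. It was covered under 10% in 1 or both WT libraries for 1199 members (39.8%), beside 61.7% of far space. The sides of the gene differed in density. Of the members, 154 (5.11%) lay 10 to 20 kb downstream of a gene covered to 50% or more, where 0.541% of far space lies, and 72 (2.39%) the same distance upstream, where 0.688% lies. KO coverage was 16.2% and 13.4% for the downstream members and 25.2% and 23.0% for the upstream ones. The strand was known for 16457 of 20665 autosomal coding genes.

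By name, zinc finger genes (Zfp, mostly DNA-binding repressors kept in clusters) were the nearest coding gene of 129 members (4.28%), beside 1.24% of far space. Olfactory and vomeronasal receptor genes, which are silent outside sensory neurons, were nearest to 24 (0.797%), beside 2.18%. Predicted genes were nearest to 260 (8.63%), beside 6.86%, and stromal markers to 3 (0.0996%), beside 0.144%. KO peaks covered 24.1% and 26.2% of the bases next to zinc finger genes, close to the values of all members. The most members lay on chromosomes 6 (210), 10 (208) and 3 (203), and the density ran from 1.79 per Mb on chromosome 14 to 4.16 on chromosome 17. On the first 3 the coding genes nearest to most members were Klf14 (27), a zinc finger transcription factor, Aldh1l2 (24), a mitochondrial folate enzyme, and Ifi44 (10), an interferon-induced gene.

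Members were chained into groups where gaps were 10 kb or less. Of 2994 gaps between neighbours, 689 (23.0%) were that short, and 373 (12.5%) were 1 kb or less. The median gap was 325 kb, with quartiles of 15.7 and 1083 kb, measured along the chromosome with genes included. Far space alone holds 1 member per 347 kb, so that value is not on the same footing. Alone stood 2026 members (67.2%). The other 987 (32.8%) formed 298 groups, of which 48 had 5 or more members and held 397 (13.2%), up to 37 in a group. Members in larger groups were wider, with medians of 405 bp alone, 438 bp in pairs and 551 bp in groups of 5 or more.

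KO coverage was lower in groups of up to 9 members than in lone members. KO peaks covered 31.7% and 33.1% of the bases of lone members, 21.2% and 23.2% in pairs, 13.9% and 21.4% in groups of 3 to 4 and 9.94% and 11.5% in groups of 5 to 9. The 11 groups of 10 or more stood at 19.8% and 20.04%, above those of 5 to 9. Among the 48 groups of 5 or more the mean KO coverage ran from 0 to 44.6%, with a median of 9.78%. The large groups therefore did not form 1 class in KO.

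The lists called against IgG separate the members along the same line. WT peaks against IgG covered 65.0% and 66.4% of member bases, beside 83.3% and 83.5% in coding spans. In 1728 members (57.4%) both IgG lists of WT covered 50% or more, and KO peaks against Input covered 16.4% and 20.5% of these. In 926 members (30.7%) neither did, and KO peaks against Input covered 48.0% and 47.2%. With KO peaks against IgG the order turned, at 12.2% and 14.8% of the bases of the 1728 members and 5.02% and 5.41% of those of the 926. Members without support in the WT lists against IgG therefore had the higher KO coverage against Input and the lower KO coverage against IgG. The part that the choice of control played was not tested. Lone members were covered to 57.5% and 59.2% in the WT lists against IgG, and those in groups of 5 to 9 to 85.9% and 87.4%. The replicates of a genotype share 1 Input and 1 IgG library, so the lists are not independent.

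The extremes of this split differed in score too. In 486 members (16.1%) both KO lists against Input covered 50% or more. Their median WT peak scores were 64.2 and 65.9, 13.6% of them were in groups, and WT peaks against IgG covered 24.0% and 25.6% of their bases. In 969 members (32.2%) there was no KO peak against Input and both WT lists against IgG covered 50% or more. Their median scores were 29.7 and 32.1, and 41.2% of them were in groups. The members shared by all libraries against Input thus had the higher scores and the weaker WT support against IgG. KO peaks against IgG covered 20.5% and 20.2% of their bases.

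The group with the most member bases lay at chr6:31054529-31093224. It held 27 members with 24.2 kb in a span of 38.7 kb. WT peaks covered 77.2% and 82.0% of the span and KO peaks 1.23% and 0%. The hairpins of Mir29a and Mir29b-1, whose miRNAs are known to repress collagen messenger RNAs, lie inside it on the minus strand. Upstream of them were 21 members, reaching 30.1 kb, and downstream 6, reaching 8.13 kb. The span of the long non-coding RNA gene Lncpint begins 0.338 kb beyond the upstream end, and the nearest coding genes, Klf14 and Mkln1, are 95.5 and 306 kb away. Peaks of both WT libraries also lay inside the Lncpint span, where the rule admits no member. The 30.1 kb is therefore the reach of the members and not of the WT peaks. Of the 27 members, 26 had no KO peak, and the exception was a 1445 bp member covered to 32.9% in KO replicate 1 alone.

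The group around the let-7 genes Mirlet7c-2 and Mirlet7b, whose miRNAs promote differentiation and restrain growth, lay at chr15:85673624-85708208. Its 18 members held 16.1 kb. WT peaks covered 62.6% and 68.0% of the 34.6 kb span and KO peaks 1.47% and 5.55%. The hairpins are on the plus strand, and 17 members lay upstream, reaching 33.0 kb, with 1 downstream. The long non-coding gene Lncppara spans the hairpins, and the coding genes Ppara, a nuclear receptor of fatty acid oxidation, and Wnt7b, a Wnt ligand, lie 26.7 and 91.8 kb off. KO peaks met 3 of the 18 members. The widest of these, 2635 bp, was covered in both KO libraries, to 19.3% and 22.8%.

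The Mir34a locus on chromosome 4 (hairpin chr4:150068454-150068555, plus strand), a known target of p53, had 6 members with 5.21 kb. The widest was the interval chr4:150063316-150066100 of 2785 bp, 2.35 kb from the hairpin. WT peaks covered 79.6% and 94.5% of the 11.8 kb span and KO peaks 4.92% and 0%. None of the 6 members held a KO base. An interval of 3445 bp over the hairpin itself, no member because it touches a gene, was covered to 16.8% in KO replicate 1 and 0% in KO replicate 2. The coding gene Gpr157 lay 14.9 kb from the group.

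At Mir365-2 on chromosome 11 the members ran the other way. All 9 lay downstream of the hairpin (plus strand), reaching 15.9 kb, and none upstream. WT peaks covered 54.1% and 51.9% of the 16.0 kb span and KO peaks 0% and 3.27%. A 360 bp member at the far end was covered in full in KO replicate 2, and the other 8 had no KO base. The members of the group thus lay mostly upstream of the hairpins at the let-7 locus and downstream at this one. The rule shapes these sides in part, because it drops intervals on annotated genes.

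**Figure D4:**
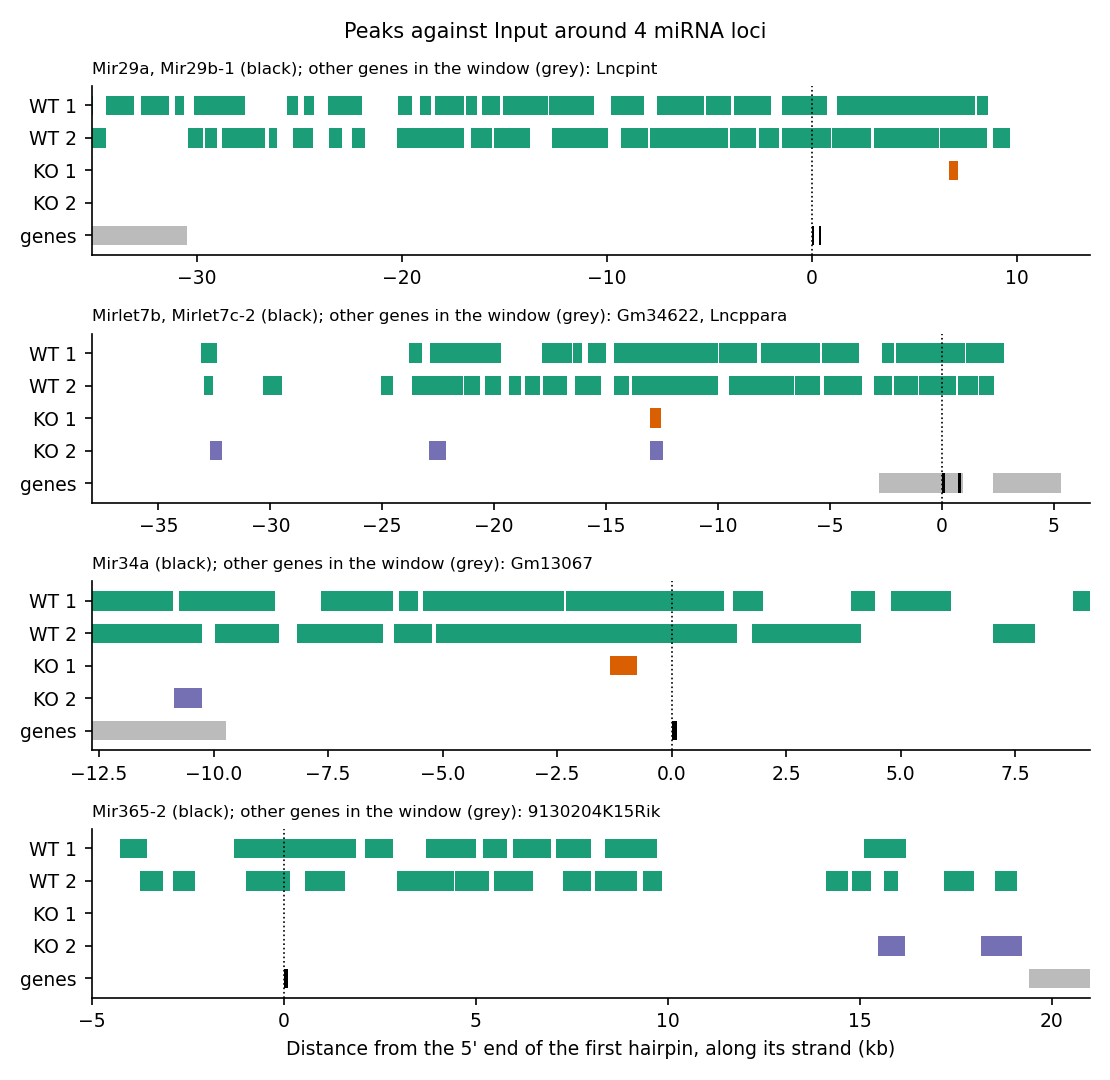
Peaks against Input in the 2 WT and 2 KO libraries (rows, as blocks to scale) around 4 miRNA loci, with distance in kb from the 5′ end of the first hairpin along its strand (x axis) and annotated genes in the lowest row (miRNA genes black, others grey). WT blocks fill much of the Mir29 and let-7 windows, where members reach 30.1 and 33.0 kb upstream of the hairpins and KO rows hold a few short blocks.

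The remaining 4 miRNA loci with 5 or more members were smaller. At Mir146, whose miRNA damps NF-kB signalling, 5 members lay upstream of the hairpin, and at the Mirlet7d, Mirlet7f-1 and Mirlet7a-1 cluster 5 members lay around and downstream of the hairpins. Neither locus had a KO base in a member. At Mir101a 5 members lay downstream, with 0% and 11.9% under KO peaks, and at Mir6363 6 lay upstream, with 0% and 16.6%. The interval over the Mir6363 hairpin, no member, was covered to 80.2% and 33.7% in KO. Over the 8 loci, 73 of 81 members (90.1%) had no KO peak, beside 80.6% of all WT regions and 48.5% of all members. Of all members, 67.2% stand alone. The Mir29 locus held 27 of the 81 and the Mirlet7c-2 and Mirlet7b locus 18, so these 2 weigh most. In all 48 groups of 5 or more, 22.4% and 23.2% of members held a peak of KO replicates 1 and 2. KO peaks covered 1.54% and 4.51% of the member bases at the 8 loci, beside 18.6% and 18.9% for the 40 other groups of 5 or more. The mean KO coverage of the 48 groups had a median of 9.78%. WT peaks against IgG covered 86.4% and 93.8% at the 8 loci, beside 79.3% and 79.9% for the 40 others. Of the 6 loci with fewer members, Mir6361 went the other way, with KO peaks on all 3 members (15.4% and 66.3% of their bases), and so did the single member at Mir3471-2 (15.6% and 30.1%). The members of the other 4 had no KO base.

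Of the 6 kinds of non-coding gene counted, miRNA genes had the highest share with a member nearby. The rule shapes this order in part, because it drops any interval that shares a base with an annotated gene. There were 3258 WT regions in other annotated genes that could not be members. A hairpin takes little space from its primary transcript, while a long non-coding gene is left out over its whole span. The shares therefore do not compare the kinds of gene on equal terms. Of 241 miRNA genes more than 10 kb from coding genes, 21 (8.71%) had a member within 5 kb, beside 2.75% of all 13302 non-coding genes at that distance. The share was 3.02% for long non-coding RNA genes (168 of 5565), 2.76% for pseudogenes (148 of 5365), 1.71% for snoRNA genes, 1.55% for tRNA genes and 1.33% for snRNA genes. Within 2 kb the miRNA share was 7.88%, beside 1.32%, and within 10 kb it was 14.5%, beside 4.82%. The 21 genes fall into 14 loci, so they are not independent of each other, and 17 of them were found in the sequence table. An interval shared by both WT lists lay on 15 of the 21 hairpins, and for 12 of these it had no KO base. That is near the share among all autosomal WT regions, of which 80.6% had no KO peak. Some hairpins lie in the same interval, so it was counted for each: Mir29a with Mir29b-1, Mir181a-1 with Mir181b-1, and Mirlet7f-1 with Mirlet7a-1.

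**Figure D5:**
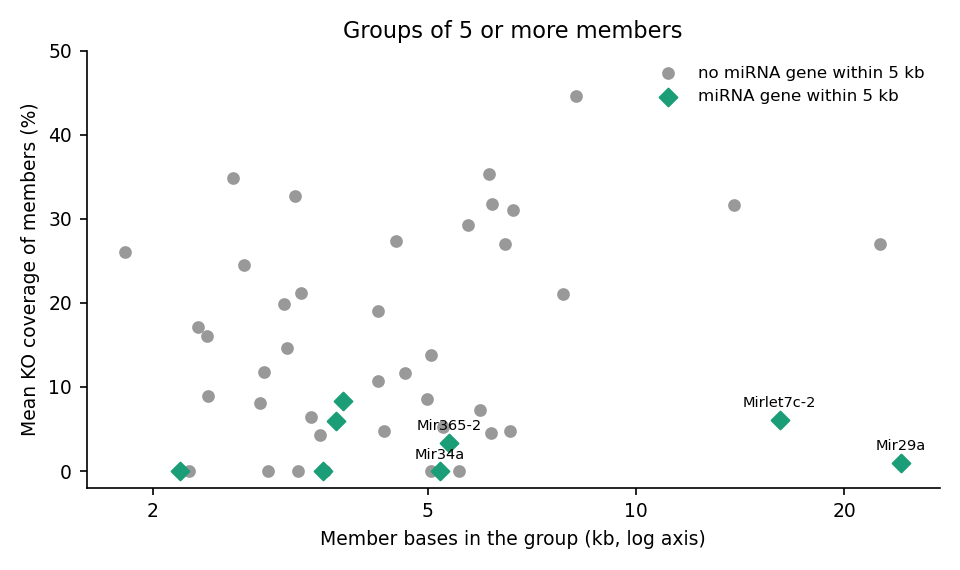
Mean KO coverage of the members (y axis, percent of member bases, mean of the KO libraries) against the member bases of the group (x axis, kb, log scale) for the 48 groups of 5 or more members, 1 point each. The 8 groups with a miRNA gene within 5 kb (diamonds) lie in the lower part of the plot, and the highest of the 48 stands at 44.6%.

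KO coverage of the 40 other large groups was uneven, and 6 of them had no KO base in any member. Of all 48 large groups, 18 had under 10% KO coverage in both KO lists and 7 had 25% or more in both. The group with the most members, 37, lay at chr10:83397879-83470420, 17.03 kb from Aldh1l2 and 29.0 kb from D10Wsu102e, with no annotated gene inside its 72.5 kb. WT peaks covered 51.5% and 49.7% of the span and KO peaks 16.8% and 17.3%. The highest KO coverage of a group with 5 kb or more of member bases was at chr17:16974782-16988204, 16.9 kb from Gm51425 and 0.624 kb from the long non-coding gene BC002059. Its 11 members had 46.9% and 42.3% of their bases under KO peaks, and WT peaks covered 69.7% and 84.8% of its span. Both KO libraries covered these groups at like levels.

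The groups among zinc finger genes that were named for their bases or KO coverage had KO coverage in both libraries. Their support against IgG was unequal. At chr4:146274212-146293262, between Zfp600 and Zfp992, 11 members with 13.8 kb had KO coverage of 29.2% and 34.1%, and WT peaks against IgG covered 61.5% and 35.4% of them. The second widest member, 3425 bp at chr4:146277732-146281156, lies in this group and had 34.7% and 68.6% of its bases under KO peaks. At chr4:145783572-145789511, between Zfp980 and Zfp987, 4 members had 32.8% and 30.7%, and WT peaks against IgG covered 11.3% and 0%. A further group at chr13:65250637-65265978, 11.2 kb from Zfp369, had 12 members with 31.0% and 32.5% under KO peaks, and 87.6% and 79.4% in the WT lists against IgG. The 7 large groups next to zinc finger genes together had 20.2% and 19.9% in KO, but they were not alike. The let-7 group next to Zfp169, also on chromosome 13, had 0% in both KO libraries. Groups next to Zfp788, Zfp652 and Zfp263 had 9.16% and 0%, 17.8% and 0%, and 0% and 9.63%. The group next to Zfp97 had 24.4% and 15.4%. How reads were placed among these clustered genes was not tested, so these values are uncertain too.

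On chromosome 17, 2 of the groups with most bases lay among the dynein light chain genes Dynlt1b, Dynlt1c and Dynlt1f, related copies between which reads can be split or misplaced, so these values are uncertain. The group at chr17:6468169-6475221 held 3 members, among them the widest of all, 4244 bp at chr17:6470978-6475221. WT peaks covered 99.2% and 89.4% of its span and KO peaks 8.65% and 0%. The group at chr17:6622917-6635085 had 11 members, WT coverage of 81.1% and 65.3% and KO coverage of 26.5% and 9.20%. KO replicate 1 was the higher at both.

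The other groups with the most bases, or with the highest KO coverage, also differed between the KO libraries. At chr16:98031216-98060804, 14.5 kb from B230307C23Rik, 12 members had 13.6% and 28.5% under KO peaks. At chr12:8610347-8628967, between the transporter gene Slc7a15 and Pum2, an RNA-binding protein gene, 10 members had 38.8% and 23.3%. At chr8:19993904-20013675 8 members had 0% and 9.40%, and at chr8:19786354-19801839 5 members had 41.2% and 29.5%. The last of the 5 widest members, 2510 bp at chr6:52532090-52534599, stood alone 11.6 kb from Hibadh, a valine-breakdown enzyme gene, with 0% and 7.73%. Which KO library was higher changed from group to group.

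No KO base was found in any member of 9 of the 48 large groups. Of these, 3 were the miRNA loci of Mir34a, Mir146 and Mirlet7d. The other 6, picked out after their values were seen, all lay downstream of their nearest coding gene. They held 39 members with 22.6 kb. The largest had 10 members on chromosome 3, 10.6 kb from Ifi44. A pair of groups followed Scaf8, whose product binds RNA polymerase II, at 10.1 and 28.9 kb, and the others followed Blcap, Slc17a5 and 2610044O15Rik8 at 11.4, 24.6 and 10.8 kb. Of all 48 large groups, 22 lay downstream of the nearest coding gene, 17 upstream and 9 next to a gene without a known strand. The 11 groups within 20 kb downstream of a gene covered to 50% or more had KO coverage of 12.7% and 15.3%, beside 14.5% and 15.5% for all 48.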

How the data were processed

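Bowtie2 and GRCm38 are named as aligner and build by the submitters' processing notes. For each H3K36me3 library the authors deposited 2 peak lists, called against the Input and against the IgG library of its genotype, per the labels, which makes 8 lists. Peak names beginning with MACS point to that caller, and neither its version nor its settings are given in the sources used here. Each peak carries a score written by the authors (smallest 13.01, scale not stated), used to describe and filter peaks inside its own list. Without reads in the lists, depth could not be matched, and deeper sequencing tends to yield more calls.

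Peaks were read as intervals with Python 3.11.15 and numpy 2.4.6, and positions are printed counted from 1. Gene spans and biotypes came from the RefSeq table of GRCm38.p6 (47042 autosomal genes), and strands and miRNA sequences from the matching sequence tables. Coverage is the percent of bases under a peak. Far space is the part of each autosome, between its first and last gene or peak, where a member could lie, and its shares by nearest gene were read at points 1 kb apart. Far peaks in tests lie wholly in it. The interval steps were tested on simulated data. Members, lists and named groups were chosen with earlier results of these data known. Named were the 10 groups with most member bases, the 5 with the highest KO coverage among the 22 of 5 kb or more, the 5 widest members, those next to each threshold, and the gene nearest to most members on 3 chromosomes. The miRNA loci were added after seeing the values. Measures of whole libraries were tested by two-sided exact permutation of the 4 libraries. No genome sequence was used, so repeats, base composition and mappability of members were not analysed here. The merged peak table that the labels mention was not analysed here. A haematopoietic marker of the list is not reported here.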

Additional observations from a re-analysis of the deposited data

How the results depend on the processing

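Covered bases in far space were higher in KO under all 12 alternatives run. The width difference (KO minus WT) ran from -2.76 to 3.69 bp with a library left out, and was -0.708 bp with lists against IgG, -60.2 bp with peaks at or above the median score, -9.80 bp beyond 5 kb and -11.4 bp with a 500 bp minimum, but 29.6 bp with peaks within 1 kb merged, 5.82 bp beyond 20 kb, 10.1 bp beyond 50 kb and 5.71 bp beyond 10 kb from every gene. Held-out WT minus KO coverage ran from -2.18 to 0.0245 percentage points without a KO library. It was 2.19 (IgG lists), 4.70 (score), 1.66 (5 kb), -1.99 (peaks within 1 kb merged), -2.32 (20 kb), -3.31 (50 kb), -2.11 (10 kb from every gene) and -0.512 (500 bp). KO coverage of members ran from 12.8% to 27.6% with a library left out, and was 13.9% (IgG lists), 30.7% (score), 22.6% (5 kb), 28.7% (20 kb), 31.3% (50 kb), 28.3% (every gene) and 24.0% (500 bp). The share of members covered to 50% or more was 29.2%, and coverage of members that both WT lists against IgG hold was 18.4%, an alternative chosen after seeing the data. The grouped share was 46.8% to 47.2% without a WT library. It was 36.6% (IgG lists), 18.3% (merged), 42.0% (5 kb), 27.1% (20 kb), 17.3% (50 kb), 26.1% (every gene), 38.8% (no minimum width) and 37.7% (500 bp), and 29.3%, 38.4% and 43.0% with gaps of 5, 25 and 50 kb. WT coverage against IgG was 68.3% to 72.7% without a WT library, 49.6% (score), 64.5% (merged), 69.3% (5 kb), 62.8% (20 kb), 58.5% (50 kb), 63.0% (every gene) and 70.8% (500 bp). Members numbered 20904 to 21719 without a WT library, since peaks of 1 library then qualify, 1995 (IgG lists), 819 (score), 1379 (50 kb) and 1011 (500 bp). Otherwise the cause of each shift was not tested.

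With the replicate block, the paired exact permutation p was 0.5 for covered bases (difference 19.7 Mb) and 1.0 for width (0.465 bp), and 0.5 is the smallest it allows. The numbers pair libraries by title only: over 24411 windows of 100 kb, the correlation of the WT and KO replicate differences was -0.00793. Held-out coverage has no value without a WT library. With 2 libraries per genotype and no read depth, no difference between genotypes can reach significance in these tests.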
